A study of Mus musculus with 36 samples.

Results

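Nuclear receptors are transcription factors, and most of them carry a DNA-binding domain with zinc fingers. Most also have a pocket for a small fat-soluble ligand such as a steroid, a thyroid hormone, vitamin D, a retinoid, an oxysterol or a fatty acid. The 31 genes described here belong to this superfamily and were chosen by name from the 52505 genes of the expression table. Pparg, the receptor that drives fat cell formation, is not among them, and neither are 17 others such as Rxra and Nr3c1, so that these 18 receptor genes serve only for comparison. Of the 31, 17 had a mean of at least 1 FPKM (fragments per kilobase of gene length and of sequencing depth) over all libraries and were tested, and 14 lay under that level.

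The data are RNA sequencing of 3T3-L1 cells, a mouse embryonic fibroblast line of preadipocytes that form fat cells when given a hormone cocktail. There were 12 libraries in 4 groups of 3: wild type cells and cells labelled zfp217-/- (KO), each at day 0 and at day 2 of treatment. No group was kept to day 2 without the cocktail, so the cocktail and time in culture cannot be told apart. A response below means day 2 against day 0. Zfp217 encodes a zinc finger protein. The cocktail held dexamethasone (a synthetic glucocorticoid), isobutyl-methylxanthine (which raises cyclic AMP), insulin and indomethacin, in a medium with fetal bovine serum that all groups shared. How the deletion was made, whether the KO cells are 1 clone and whether libraries of 1 group were grown apart is not in the labels. The p-values therefore measure only the spread between libraries, which may be technical. Another 24 libraries of the series, from m6A immunoprecipitation and its input, were not analysed here.

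Most receptors of this superfamily bind DNA, either alone, as homodimers or as heterodimers with a retinoid X receptor (RXR). Without ligand many of them hold corepressors such as NCOR1 on their target genes, and ligand exchanges these for coactivators of the NCOA and PGC-1 families. In fat cell precursors, glucocorticoid signalling and PPAR gamma with RXR alpha drive differentiation, while retinoic acid receptors, the vitamin D receptor and COUP-TFII are known mostly for holding it back. LXR alpha (gene Nr1h3) and ERR alpha (gene Esrra) are known for lipid and mitochondrial gene programmes in mature fat.

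Zfp217 itself was not lower in the libraries labelled KO. Its level was 26.0 ± 0.883 FPKM (SD, n = 3) in KO and 22.0 ± 0.279 in WT at day 0, and 22.6 ± 0.858 in KO and 15.1 ± 0.369 in WT at day 2. The KO libraries were above all WT libraries at both days, with p = 0.1 in an exact 2-sided permutation test, the smallest value that 3 against 3 libraries allow. A deletion can leave the message in place, but the message does not check the label, and every KO direction below rests on that label. The libraries held between 18073766 and 23116584 reads assigned to genes. The 9 preadipocyte and mesenchymal markers summed to between 7990 and 8264 FPKM in WT at day 0 and between 20626 and 21236 in KO. At day 2 they summed to between 1142 and 1170 FPKM in WT and between 6558 and 6799 in KO. The day 0 gap in the sum came from the collagens Col1a1 and Col3a1, since the other 7 markers summed to between 3444 and 3559 FPKM in WT and between 3325 and 3395 in KO. At day 2 these 7 summed to between 563 and 579 FPKM in WT and between 2907 and 2966 in KO. Of the 9, 6 were higher in KO at day 0, Cd34 and Vim were lower and Thy1 was not called, and at day 2 8 were higher and Cd34 was not called. Cd34 reached the minimum mean only through WT at day 0, at 3.94 FPKM against 0.280 in KO. Its lower KO level there thus goes with its being tested. At day 2 Cd34 was low in both genotypes, at 0.345 FPKM in WT and 0.223 in KO. The 7 adipocyte markers summed to between 2.08 and 6.34 FPKM in all day 0 libraries, with Lep listed at 0 in every library. They reached between 5727 and 5921 FPKM in WT at day 2 and between 62.3 and 65.4 in KO. Markers of endothelium, epithelium and skeletal muscle stayed under 2.04 FPKM in sum, and Epcam, Myod1 and Myog were listed at 0. The 5 macrophage and leukocyte markers summed to between 3.01 and 16.8 FPKM, highest in KO at day 0, the 3 neuronal markers to at most 4.53, and the 6 cartilage and bone markers to between 15.4 and 64.7, highest in WT at day 0. The mitochondrial ribosomal RNA mt-Rnr1 was between 379 and 396 FPKM in KO at day 0, and in WT at day 0 it was at 264 in replicate 3 and as low as 5.87 in the others. At day 2 it was between 15.6 and 19.9 FPKM in WT and between 13.5 and 17.2 in KO, so that it moved with the day 0 genotype comparison and with the KO response. Without WT day 0 replicate 3, which stood apart from its group, 1 member call of the 5 comparisons was lost, that of Nr2f6 in the WT response. In bulk RNA, fewer cells of a type and less RNA per cell cannot be told apart, and the part of these shifts in the results below was not tested.

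Sequences upstream of 4 members are shown because these are the members with some of the widest swings between groups. Vdr, Nr2f2 and Rarg fell at least 2-fold from day 0 to day 2 in WT, and Nr1h3 rose. Each line gives the 250 bases before the first listed transcription start (RefSeq, GRCm38.p6), all on the minus strand, written 5′ to 3′ in the direction of the gene. Capitals mark matches to any of 8 short motifs searched on both strands. The windows lie at chr15:97908297-97908546 for Vdr, chr7:70366747-70366996 for Nr2f2, chr15:102257523-102257772 for Rarg and chr2:91195117-91195366 for Nr1h3. The first 3 windows abut the annotated 5′ end of the gene, while the Nr1h3 window lies inside the annotated gene, next to a start 7713 bases from its 5′ end.
Vdr: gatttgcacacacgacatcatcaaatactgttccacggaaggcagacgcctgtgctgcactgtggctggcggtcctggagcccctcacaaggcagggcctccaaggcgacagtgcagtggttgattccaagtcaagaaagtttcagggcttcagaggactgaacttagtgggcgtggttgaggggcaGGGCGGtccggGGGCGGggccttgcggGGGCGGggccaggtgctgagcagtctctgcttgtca
Nr2f2: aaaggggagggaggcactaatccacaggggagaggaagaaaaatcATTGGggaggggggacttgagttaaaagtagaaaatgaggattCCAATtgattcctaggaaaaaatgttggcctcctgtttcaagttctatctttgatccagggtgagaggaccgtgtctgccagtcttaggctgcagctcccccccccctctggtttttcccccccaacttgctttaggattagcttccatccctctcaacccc
Rarg: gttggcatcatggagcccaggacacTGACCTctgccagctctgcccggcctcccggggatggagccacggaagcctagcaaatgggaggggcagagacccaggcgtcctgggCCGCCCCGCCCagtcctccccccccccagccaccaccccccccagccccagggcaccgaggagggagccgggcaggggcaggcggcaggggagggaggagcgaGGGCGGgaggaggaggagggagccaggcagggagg
Nr1h3: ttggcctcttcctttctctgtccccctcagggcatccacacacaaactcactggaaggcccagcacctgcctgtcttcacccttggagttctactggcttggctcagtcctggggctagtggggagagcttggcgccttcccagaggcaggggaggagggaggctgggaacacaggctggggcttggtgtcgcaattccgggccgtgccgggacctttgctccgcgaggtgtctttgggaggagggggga

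The Vdr window held 3 GC boxes (GGGCGG), which are binding motifs of SP1-type factors, all within 63 bases of the start. The Rarg window also held 3 GC boxes, a pair of them overlapping on the reverse strand, and 1 nuclear receptor half-site (AGGTCA, here on the reverse strand) 225 bases before the start. In the Nr2f2 window the capitals are 2 CCAAT boxes, and in the Nr1h3 window none of the 8 motifs was found. GC boxes were in 32.7% of all 32851 windows of this length, CCAAT in 33.8% and AGGTCA in 14.0%. The other motifs were AGAACA (the steroid receptor half-site, 16.1%), TGACG (17.8%), TGACGTCA (the cyclic AMP response element, which contains TGACG, 1.55%), TATAAA (12.4%) and CACGTG (6.02%). RefSeq windows were matched for 30 members, all except Thra, and the tested members had 24 windows. Of those 24, GC boxes were in 13, CCAAT in 7, TGACG in 5, AGGTCA in 2, CACGTG in 1 and the other 3 motifs in 0. The tested members' windows held a median of 13 CpG dinucleotides, those of the members under 1 FPKM 7, and all windows 6. A match describes letters only, and no match says nothing of a factor.

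At day 0, before the cocktail, 9 of the 17 tested receptors were higher in the libraries labelled KO and 5 were lower. The largest of these differences were in Rora, Thra and Nr3c2, all higher in KO, and in Vdr and Nr2f2, both lower. Over all 12961 genes tested, 38.3% were higher in KO and 44.2% lower. Rora, Thra and Nr3c2 were the 3 members higher by at least 2-fold, against 10.4% of all genes, and Vdr and Nr2f2 the 2 lower by at least 2-fold, against 11.9%. A call here is an adjusted p under 0.05 from limma on log2(FPKM + 1), and the 2-fold minimum is a log2 change of 1 on that scale, which understates changes of low genes. The members' median absolute log2 change was 0.37, and that of all genes was 0.51.

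At day 2, 10 receptors were higher in the KO libraries and 5 lower, while 40.8% of all genes were higher and 40.6% lower. At least 2-fold higher were 7 members, namely Vdr, Rarg, Thra, Nr2f2, Nr2f1, Nr3c2 and Rara, against 12.9% of all genes. Nr1h3 was the 1 member at least 2-fold lower, against 11.5% of all genes. The median absolute log2 change was 0.82 for the members and 0.52 for all genes. Vdr and Nr2f2 were thus lower in KO at day 0 and higher at day 2. Of the 18 receptor genes outside the members 7 were tested, with 3 higher and 4 lower in KO at day 0 and 3 higher and 3 lower at day 2.

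**Figure D1:**
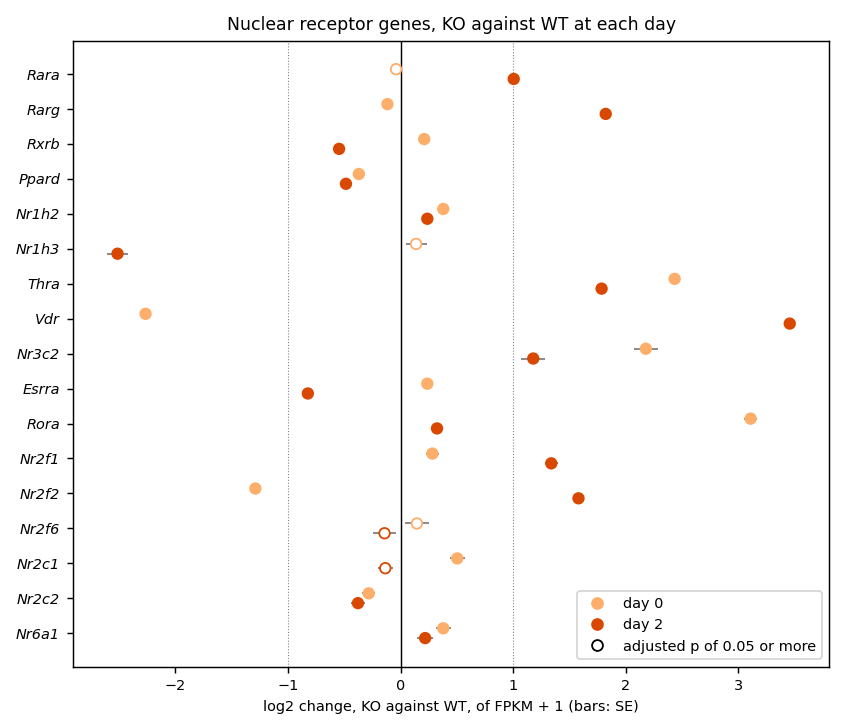
Log2 change of FPKM + 1 in the libraries labelled KO against WT for the 17 tested receptors at day 0 (light points) and day 2 (dark points), with SE bars; open points have an adjusted p of 0.05 or more and dotted lines mark 2-fold. Vdr moved from -2.27 at day 0 to 3.46 at day 2, and Nr2f2 from -1.29 to 1.58, while Thra was higher at both days, by 2.43 and 1.78.

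Between day 0 and day 2, WT cells raised 8 tested receptors and lowered 5, and 34.2% of all genes rose and 46.5% fell. Nr1h3, Rora and Esrra rose at least 2-fold, against 9.28% of all genes, and Rarg, Vdr and Nr2f2 fell at least 2-fold, against 15.1%. In the KO libraries 7 receptors rose and 8 fell, and 33.9% of all genes rose and 38.8% fell. Vdr and Rara were the 2 that rose at least 2-fold (5.46% of all genes), and no member fell that far, while 6.99% of all genes did. With quantile normalization the WT split was 11 up and 4 down, and with median-of-ratios scaling the KO split was 8 up and 6 down. The largest decrease by limma in KO was that of Nr3c2, with a log2 change of -0.81.

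The 2 genotypes moved 6 of the 17 receptors in opposite directions, each call made within its own libraries. These were Vdr, Nr2f1 and Nr2f2, which fell in WT and rose in KO, and Thra, Rora and Nr2c1, which rose in WT and fell in KO. Among all genes tested, 18.2% were called in opposite directions. The same direction was called for 5 receptors (Esrra, Rxrb and Ppard up, Rarg and Nr2c2 down), and for 44.2% of all genes. The interaction term, which tests the difference between the 2 responses, was called higher in KO for 5 members (40.8% of all genes) and lower for 8 (33.0%). At least 2-fold were all 5 of the higher (12.8% of all genes) and 3 of the lower (8.71%), the latter being Rora, Nr1h3 and Esrra. The comparisons share groups (the WT day 0 libraries, for example, enter 3 of the 5), so their calls are not independent.

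**Figure D2:**
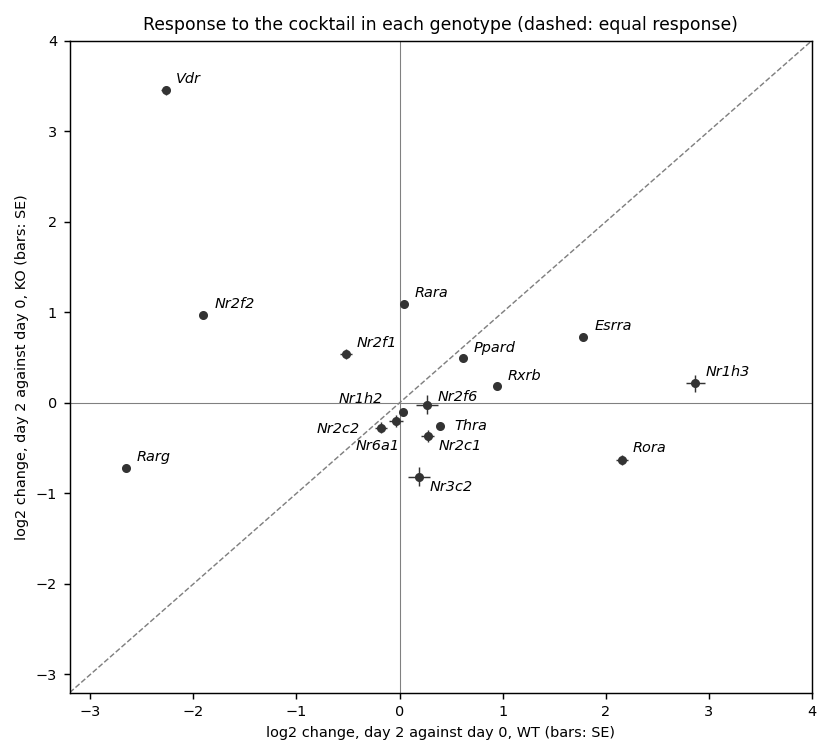
Log2 change of FPKM + 1 from day 0 to day 2 in WT (x axis) and in the libraries labelled KO (y axis) for the 17 tested receptors, with SE bars; the dashed line marks equal responses. Vdr lies at -2.27 in WT and 3.45 in KO, Nr1h3 at 2.87 and 0.22, and Rora at 2.16 and -0.63.

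By level in FPKM, which is per length and rests on the gene lengths the authors used, Rarg led the members in WT at day 0 with 117 ± 3.401 (SD, n = 3). Nr2f2 (73.3 ± 2.52), Vdr (72.1 ± 4.34) and Thra (69.6 ± 1.15) followed, with overlapping libraries between neighbours. In WT at day 2 the order was led by Esrra (145 ± 3.56), Rxrb (96.3 ± 1.72) and Thra (91.5 ± 1.02), with no overlap between these neighbours, and Rarg and Nr2f2 overlapped far below at 17.7 and 18.9. Thra led both KO groups, at 380.1 ± 2.46 at day 0 and 317 ± 2.98 at day 2. Second place was held by Rarg (108 ± 1.97) at day 0 and by Vdr (165 ± 3.58) at day 2. Nr3c2 was the lowest tested member in WT at both days (0.964 and 1.23), and Nr1h3 in KO at day 0 (3.14); in KO at day 2 Nr1h3 (3.85 ± 0.783) and Nr3c2 (4.05 ± 0.470) overlapped.

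**Figure D3:**
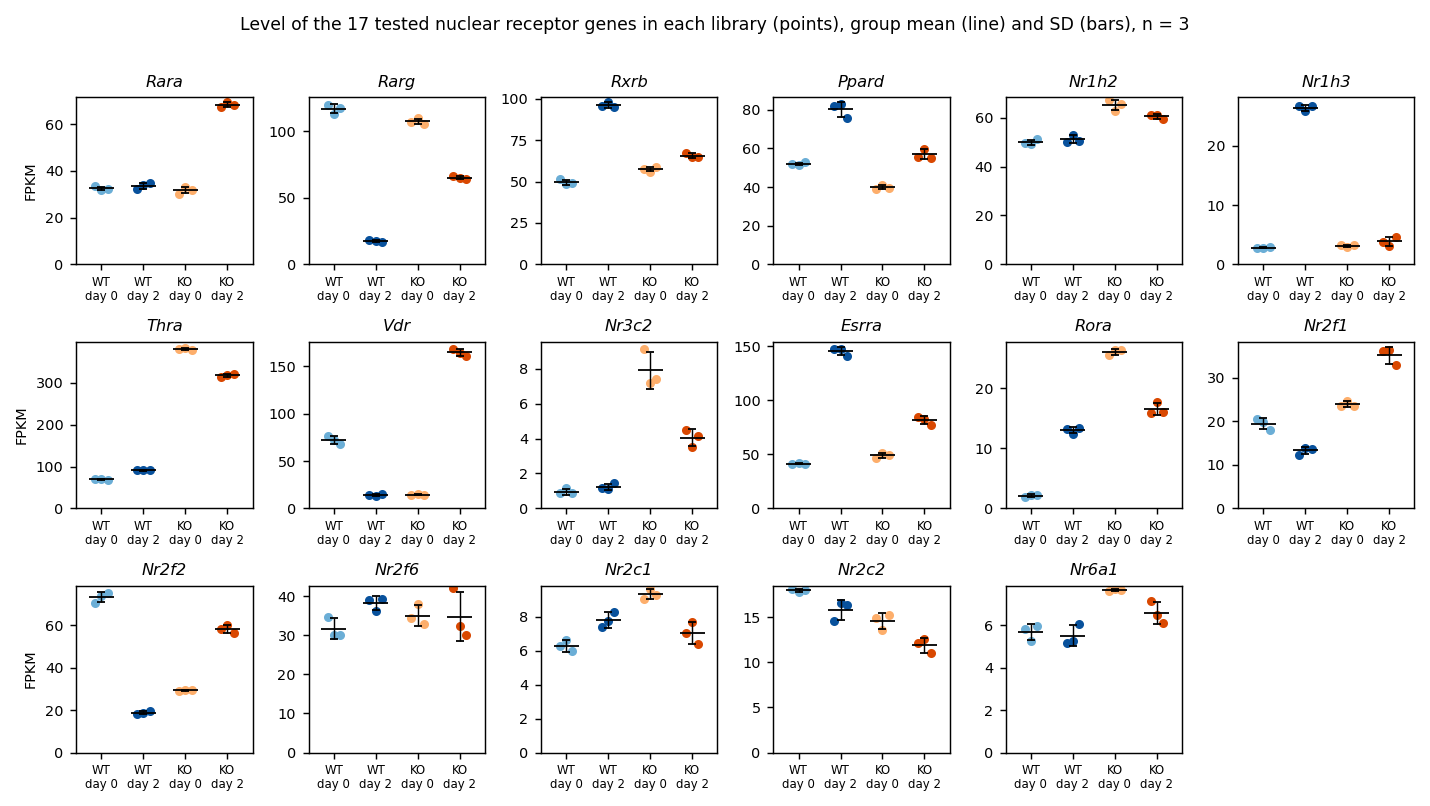
FPKM of each of the 17 tested receptors in every library (points) with the mean (line) and SD (bars) of each group of 3, on axes that start at 0. Thra sits near 380.1 and 317 in the KO groups against 69.6 and 91.5 in WT, and Nr1h3 stands out in WT at day 2 alone, at 26.5.

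Retinoic acid receptors (RARs) bind all-trans retinoic acid as heterodimers with RXR. Rarg (ENSMUSG00000001288, chr15:102234938-102257522) was at 119.9, 113 and 117 FPKM in the WT day 0 libraries and at 107, 109.7 and 106 in KO at day 0. At day 2 it was at 18.6, 17.5 and 17.04 in WT and at 66.2, 65.1 and 63.9 in KO. Rarg thus fell in both genotypes, and the 4 groups did not overlap. The fall was 6.60-fold in WT (log2 change -2.66, SE 0.03, adjusted p = 5.9e-15, limma) and 1.65-fold in KO (-0.72, SE 0.03, adjusted p = 1.7e-09). The difference between the 2 responses was 1.94 (SE 0.05, adjusted p = 6.2e-12). KO was 3.67-fold above WT at day 2. At day 0 the KO libraries were 1.09-fold lower (-0.12, adjusted p = 0.0057), a call that was lost with values rescaled to TPM (-0.01) and turned to 0.030 with quantile normalization.

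Rara (ENSMUSG00000037992, chr11:98927800-98974942), the RAR alpha gene, was at 33.4, 32.0 and 32.4 FPKM in WT at day 0, at 32.2, 33.9 and 34.8 in WT at day 2, and at 30.3, 32.9 and 31.9 in KO at day 0. These 3 groups overlapped. Only the KO day 2 libraries stood apart, at 67.3, 69.6 and 68.4 FPKM. The rise in KO was 2.16-fold (log2 change 1.09, SE 0.04, adjusted p = 9.3e-11, limma), and the interaction was 1.04 (SE 0.05, adjusted p = 3.4e-09). The change in WT was 0.04 (adjusted p = 0.296), and it passed with median-of-ratios scaling (0.14, adjusted p = 0.0036) and with quantile normalization (0.091, adjusted p = 0.031). The third RAR gene, Rarb, had 72 reads in all 12 libraries. In WT the summed RAR level went from 149.6 ± 4.08 to 51.4 ± 0.530 FPKM and the Rarg share from 78.1 ± 0.212% to 34.5 ± 1.87% (SD, n = 3). In KO the sum was 139 ± 2.90 and then 134 ± 1.27 FPKM, and the Rarg share went from 77.2 ± 0.677% to 48.7 ± 0.726%.

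Among the retinoid X receptors, the shared heterodimer partners, Rxrb (RXR beta) was between 48.6 and 51.2 FPKM in WT at day 0 and between 95.2 and 98.3 at day 2. It rose 1.94-fold in WT (log2 change 0.95, adjusted p = 1.6e-11, limma) and 1.14-fold in KO (0.19, adjusted p = 7.9e-05), from 57.4 ± 1.38 to 65.6 ± 1.34 FPKM. Rxra, the RXR alpha gene and not a member, went from 71.8 to 241 FPKM in WT and from 66.0 to 260 in KO. The Rxrb share of the RXR sum therefore went from 40.8 ± 0.536% to 28.5 ± 0.326% in WT and from 46.5 ± 0.406% to 20.2 ± 0.435% in KO. Rxrg, the third RXR, had 0 reads in every library.

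**Figure D4:**
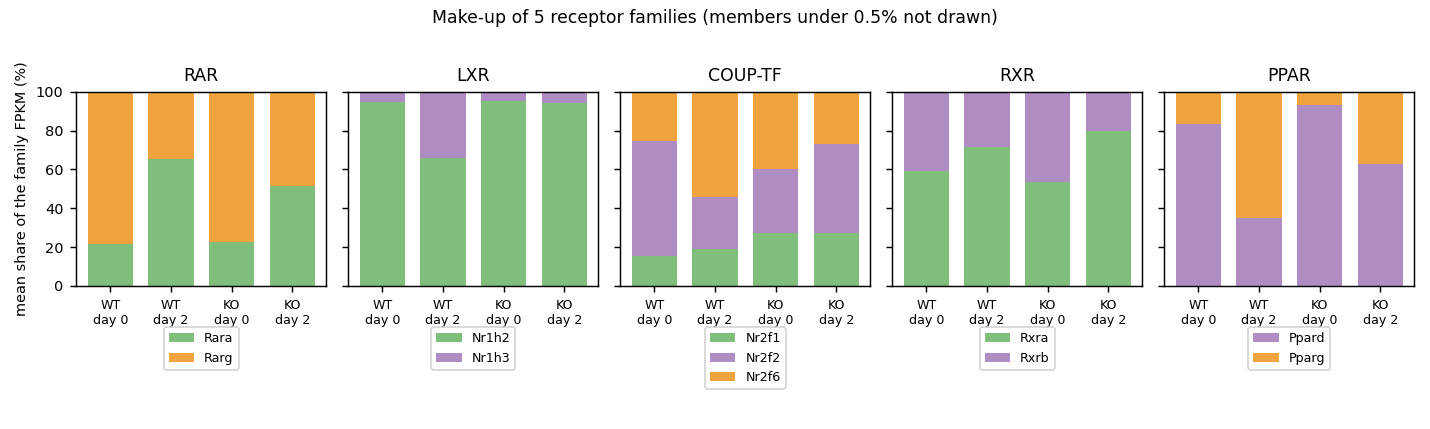
Mean share of the summed FPKM (%) held by each member of the RAR, LXR, COUP-TF, RXR and PPAR families in the 4 groups; members under 0.5% are not drawn and shares depend on the gene lengths used. Nr1h3 held 34.1% of the LXR sum in WT at day 2 and 5.98% in KO, and Nr2f2 held 26.8% of the COUP-TF sum in WT at day 2 and 45.6% in KO.

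The liver X receptors bind oxysterols and switch on cholesterol export and fatty acid synthesis. Nr1h3 (LXR alpha, ENSMUSG00000002108, chr2:91184061-91202829) was at 2.70, 2.73 and 2.86 FPKM in WT at day 0 and at 26.7, 25.9 and 26.8 in WT at day 2. In KO it was at 3.17, 2.99 and 3.26 at day 0 and at 3.81, 3.08 and 4.65 at day 2. The WT day 2 libraries were far above all others, and the 2 KO groups overlapped. The WT rise was 9.58-fold (log2 change 2.87, SE 0.09, adjusted p = 3.0e-11, limma), and at day 2 KO was 6.88-fold lower (-2.51, SE 0.09, adjusted p = 1.1e-10). In KO the change was 0.22 (adjusted p = 0.053), which passed without KO day 2 replicate 2 (adjusted p = 0.0013), with quantile normalization (0.38, adjusted p = 0.0048), with median-of-ratios scaling (adjusted p = 0.029), with a minimum of 5 FPKM (adjusted p = 0.046) and with a replicate block (adjusted p = 0.034). The day 0 difference of 0.14 (adjusted p = 0.186) passed with values rescaled to TPM (0.24, adjusted p = 0.037). The interaction was -2.65 (SE 0.13, adjusted p = 3.3e-09). Nr1h3 shares its locus with Acp2 and was the one LXR gene to move by 2-fold. Nr1h2 (LXR beta) was between 49.1 and 67.2 FPKM in all 12 libraries, higher in KO by 0.38 at day 0 and 0.24 at day 2 (adjusted p = 2.5e-07 and 1.9e-05). It fell in KO by 0.10 on the log2 scale (adjusted p = 0.010), and this call was lost with median-of-ratios scaling (adjusted p = 0.185), under which Nr1h2 rose in WT (0.13, adjusted p = 0.0013) in place of 0.04 (adjusted p = 0.287).

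PPAR delta (Ppard), the widely expressed fatty acid receptor, rose in both genotypes. In WT it went from 52.0 ± 0.636 to 80.2 ± 3.95 FPKM (SD, n = 3; log2 change 0.61, adjusted p = 2.6e-08, limma). In KO it went from 40.0 ± 1.15 to 57.0 ± 2.54 (0.50, adjusted p = 3.3e-07). It was lower in KO at both days, by 0.37 and 0.49 on the log2 scale, with no overlap between KO and WT libraries. The interaction was -0.11 (adjusted p = 0.088), and it passed without WT day 2 replicate 3 (adjusted p = 0.016) or KO day 2 replicate 2 (adjusted p = 0.026), and with values rescaled to TPM (-0.17, adjusted p = 0.020) or median-of-ratios scaling (adjusted p = 0.036). Pparg, for comparison, was at 10.2 and 150.2 FPKM in WT at day 0 and day 2 and at 2.85 and 33.7 in KO. Ppard so made up 83.5 ± 0.637% of the PPAR sum in WT at day 0 and 34.8 ± 1.38% at day 2, and 93.2 ± 1.41% and then 62.8 ± 1.19% in KO.

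The vitamin D receptor binds calcitriol and is known to restrain early fat cell formation. Vdr (ENSMUSG00000022479, chr15:97854427-97908296) was at 76.3, 72.3 and 67.6 FPKM in WT at day 0 and at 13.9, 13.6 and 14.9 in WT at day 2. In KO the order was the other way round, with 14.0, 14.8 and 13.8 FPKM at day 0 and 169, 165 and 161 at day 2. The low groups, WT at day 2 and KO at day 0, overlapped each other, and the KO day 2 libraries were the highest. Vdr fell 5.10-fold in WT (log2 change -2.27, SE 0.05, adjusted p = 4.9e-13, limma) and rose 11.6-fold in KO (3.45, SE 0.05, adjusted p = 3.7e-14). KO was 5.08-fold below WT at day 0 and 11.7-fold above it at day 2. The interaction, 5.72 (SE 0.07, adjusted p = 3.1e-14), was the largest among the members. Genes on chromosome 15, which holds Vdr and Rarg, had a median KO against WT change 0.17 above that of all genes at day 0 and 0.20 above at day 2.

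Thra encodes thyroid hormone receptor alpha, which binds triiodothyronine, and a splice form that does not. It lies at chr11:98740776-98769006 (ENSMUSG00000058756). Thra was at 70.6, 69.8 and 68.3 FPKM in WT at day 0 and at 91.1, 90.7 and 92.6 in WT at day 2. In KO it was at 380.0, 383 and 378 FPKM at day 0 and at 314, 318 and 320.1 at day 2. Every KO library was above every WT library at both days. KO was higher 5.46-fold at day 0 (log2 change 2.43, SE 0.02, adjusted p = 9.3e-16, limma) and 3.47-fold at day 2 (1.78, SE 0.02, adjusted p = 3.0e-15). Thra rose by 0.39 in WT (adjusted p = 1.4e-09) and fell by 0.26 in KO on the log2 scale (adjusted p = 1.2e-07), and the interaction was -0.65 (adjusted p = 6.3e-10). Thra overlaps Nr1d1, the REV-ERB alpha gene on the other strand, and the sources used here do not say whether counting used strand. Nr1d1 itself was at 7.28 and 24.0 FPKM in WT at day 0 and day 2 and at 14.4 and 8.44 in KO. The part of shared reads in the level of either gene was not tested.

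The steroid receptor among the tested members was Nr3c2, the mineralocorticoid receptor, which binds aldosterone and glucocorticoids (ENSMUSG00000031618, chr8:76898083-77245012). Its libraries were at 0.866, 1.16 and 0.860 FPKM in WT at day 0 and at 1.14, 1.12 and 1.44 in WT at day 2. In KO they were at 9.14, 7.18 and 7.39 at day 0 and at 4.47, 3.54 and 4.14 at day 2. The WT groups overlapped, and all KO libraries were above them. KO was 8.20-fold higher at day 0 (log2 change 2.18, SE 0.11, adjusted p = 1.9e-09, limma) and 3.29-fold higher at day 2 (1.18, SE 0.11, adjusted p = 6.2e-07). The WT response of Nr3c2, 0.19 (adjusted p = 0.131), passed with quantile normalization (0.33, adjusted p = 0.012). Nr3c2 fell 1.95-fold in KO (-0.81, adjusted p = 2.6e-05), and the interaction was -0.9998 (SE 0.15, adjusted p = 8.3e-05). The median gene on chromosome 8, which also holds Nr2f6, was 0.42 above the median of all genes in KO against WT at day 0 and 0.40 above at day 2. The glucocorticoid receptor gene Nr3c1, the main target of dexamethasone and not a member, was at 36.3 and 41.5 FPKM in WT at day 0 and day 2 and at 68.6 and 47.3 in KO.

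Estrogen-related receptors are orphans that work with PGC-1 coactivators on mitochondrial genes. Esrra (ENSMUSG00000024955, chr19:6910977-6922048) was at 41.2, 42.3 and 41.0 FPKM in WT at day 0 and at 147, 147 and 141 at day 2. In KO it was at 46.7, 51.0 and 49.5 FPKM at day 0 and at 84.9, 82.7 and 77.5 at day 2. It rose in both genotypes, and none of the 4 groups overlapped. The rise was 3.50-fold in WT (log2 change 1.78, SE 0.04, adjusted p = 8.3e-13, limma) and 1.66-fold in KO (0.72, SE 0.04, adjusted p = 7.8e-09), and the responses differed by -1.06 (SE 0.06, adjusted p = 5.5e-09). KO was 1.18-fold higher at day 0 (0.24, adjusted p = 0.00013) and 1.78-fold lower at day 2 (-0.82, adjusted p = 1.2e-09). Esrra overlaps Trmt112 and Mir6990, and the part of shared reads in its level was not tested. Esrrb and Esrrg, the other genes of this family, had 2 and 5 reads in all libraries together.

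Rora encodes ROR alpha, a receptor that binds DNA as a monomer and competes with the REV-ERB proteins for the same sites (ENSMUSG00000032238, chr9:68653404-69388246). Rora was at 1.92, 2.24 and 2.28 FPKM in WT at day 0 and at 13.2, 12.5 and 13.4 in WT at day 2. In KO it was at 25.5, 26.3 and 26.4 at day 0 and at 15.9, 17.7 and 16.1 at day 2. The 4 groups were separate, with KO above WT at both days. The difference between KO and WT narrowed from 12.2-fold at day 0 (log2 change 3.11, SE 0.06, adjusted p = 2.4e-13, limma) to 1.27-fold at day 2 (0.32, SE 0.06, adjusted p = 0.00018). Rora rose 6.07-fold in WT (2.16, adjusted p = 3.6e-12) and fell 1.58-fold in KO (-0.63, adjusted p = 7.5e-07). The interaction was -2.79 (SE 0.08, adjusted p = 2.3e-11). The sister gene Rorb had 1 read in all libraries.

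COUP transcription factors are orphan receptors that mostly repress, and COUP-TFII (Nr2f2) is known to be lost as preadipocytes differentiate. Nr2f2 (ENSMUSG00000030551, chr7:70351946-70366746) was at 70.5, 74.0 and 75.5 FPKM in WT at day 0 and at 18.3, 18.6 and 19.7 in WT at day 2. In KO it was at 29.2, 29.6 and 29.3 FPKM at day 0 and at 58.4, 60.3 and 56.5 at day 2. The groups did not overlap, and the day 2 level was the lower one in WT and the higher one in KO. Nr2f2 fell 3.88-fold in WT (log2 change -1.90, SE 0.04, adjusted p = 2.0e-13, limma) and rose 1.99-fold in KO (0.97, SE 0.04, adjusted p = 2.1e-10). KO was 2.50-fold below WT at day 0 and 3.09-fold above it at day 2, and the interaction was 2.87 (SE 0.05, adjusted p = 5.0e-13).

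COUP-TFI (Nr2f1, ENSMUSG00000069171, chr13:78188971-78198873) moved the same ways with smaller changes. Its libraries were at 20.4, 19.9 and 18.1 FPKM in WT at day 0 and at 12.3, 13.8 and 13.7 at day 2, and in KO at 23.5, 24.7 and 23.4 at day 0 and at 36.2, 36.2 and 32.8 at day 2. The groups did not overlap. Nr2f1 fell in WT by 0.52 on the log2 scale (adjusted p = 4.0e-06, limma) and rose by 0.54 in KO (adjusted p = 4.4e-06). At day 0 the order of the genotypes was the opposite of that of Nr2f2, with KO 1.23-fold higher (0.28, adjusted p = 0.00069). At day 2 KO was 2.64-fold higher (1.34, SE 0.06, adjusted p = 5.0e-10), and the interaction was 1.06 (SE 0.08, adjusted p = 2.1e-07).

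Nr2f6 (EAR2), the third COUP family gene, did not pass in either KO against WT comparison at the levels of 31.6 ± 2.70 and 38.2 ± 1.80 FPKM in WT and 35.0 ± 2.60 and 34.8 ± 6.34 in KO (day 0 and day 2, SD, n = 3). Its KO day 2 libraries ranged from 30.1 to 42.0. Without replicate 1 of that group, the highest, KO was lower at day 2 (log2 change -0.28, adjusted p = 0.0052, limma) and the interaction passed (-0.43, adjusted p = 0.0030). Its rise in WT (0.27, adjusted p = 0.036) was lost without WT day 0 replicate 2 (adjusted p = 0.105) or 3 (0.101) and without WT day 2 replicate 1 (0.086) or 3 (0.093), and with no minimum level (0.085). With quantile normalization it was higher in KO at day 0 (0.27, adjusted p = 0.035).

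The testicular receptors TR2 (Nr2c1) and TR4 (Nr2c2) are related orphans. Nr2c1 was between 5.95 and 9.63 FPKM in all libraries and 1.48-fold higher in KO at day 0 (log2 change 0.50, adjusted p = 1.7e-05, limma). It rose by 0.27 in WT and fell by 0.37 in KO on the log2 scale, with an interaction of -0.64 (adjusted p = 5.7e-05). Its day 2 difference of -0.14 (adjusted p = 0.072) passed without WT day 2 replicate 1 (adjusted p = 0.049) or KO day 2 replicate 2 (0.016), with quantile normalization (0.010) or median-of-ratios scaling (0.036), and with voom on recovered reads (0.049). Nr2c2 was between 10.99 and 18.1 FPKM and lower in KO at both days, by 0.28 and 0.38 on the log2 scale (adjusted p = 0.00090 and 9.3e-05). Its interaction, -0.10 (adjusted p = 0.328), passed with quantile normalization (-0.21, adjusted p = 0.030). It fell in both genotypes, by 0.27 in KO (adjusted p = 0.0015) and by 0.18 in WT (0.017), and the WT call was lost without WT day 2 replicate 1 (adjusted p = 0.079) and with median-of-ratios scaling (-0.083, adjusted p = 0.178), and with quantile normalization the change was 0.0036. The median gene on chromosome 6, where Nr2c2 lies, was 0.34 below that of all genes in KO against WT at day 0 and 0.31 below at day 2.

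Nr6a1 (GCNF), known as a repressor of pluripotency genes, was between 5.17 and 7.72 FPKM in all libraries. It was 1.35-fold higher in KO at day 0 (log2 change 0.38, adjusted p = 0.00027, limma) and 1.19-fold higher at day 2 (0.22, adjusted p = 0.011). The day 2 call was lost without KO day 2 replicate 1 (adjusted p = 0.053) and with quantile normalization (adjusted p = 0.051). Its decrease in KO (-0.20, adjusted p = 0.020) was lost without KO day 0 replicate 2 (adjusted p = 0.0504) and without KO day 2 replicate 2 (0.053) or 3 (0.081). It was also lost with quantile normalization (-0.097, adjusted p = 0.186) and median-of-ratios scaling (-0.15, adjusted p = 0.055). With quantile normalization Nr6a1 rose in WT (0.23, adjusted p = 0.0051) and its interaction passed (-0.33, adjusted p = 0.0057).

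The 14 members under the minimum had at most 0.225 FPKM in any library, a value of Rarb. Rxrg and Nr0b1, the gene of the dosage-sensitive repressor DAX1, had 0 reads in all 12 libraries. Rorb, Nr2e1 (TLX) and Nr5a2 (LRH1) had 1 read each. Thrb, the thyroid hormone receptor beta gene, had 4 and 1 reads in WT at day 0 and day 2 and 45 and 17 in KO. Esr2 (estrogen receptor beta) had 25 reads in WT at day 0 and 2, 3 and 0 in WT at day 2, KO at day 0 and KO at day 2. Estrogen receptor alpha (Esr1) had 23 reads in all, the progesterone receptor (Pgr) 2, PPAR alpha (Ppara) 17 and the bile acid receptor FXR (Nr1h4) 20. With no minimum level, the day 0 difference passed for Thrb (log2 change 0.16), Esr1 (0.08) and Esr2 (-0.14). So did the WT response of Esr2 (-0.15), the KO responses of Thrb (-0.11) and Esr1 (-0.08), and the interactions of Esr2 (0.13) and Esr1 (-0.09).

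Receptors act through coregulators. The gene lists from here on are read beside the shares of all genes given above, and a gene can stand on several of them. The listed coactivators were split in direction. Of 16 coactivators tested, 6 were higher and 7 lower in KO at day 0, and 7 were higher and 7 lower at day 2 (medians -0.01 and -0.05). Ppargc1b (PGC-1 beta), a partner of ERR alpha, was at 1.86 ± 0.416 FPKM in KO and 36.2 ± 1.78 in WT at day 2 (SD, n = 3; log2 change -3.71, adjusted p = 6.5e-12, limma). At day 0 Ppargc1b was at 0.356 FPKM in KO and 1.55 in WT. Ncoa1 (SRC-1) was at 11.98 ± 0.419 FPKM in KO and 58.4 ± 2.69 in WT at day 2 (-2.19, adjusted p = 3.0e-13). Ppargc1a (PGC-1 alpha) was higher in KO at day 0 (3.65 against 0.880 FPKM) and lower at day 2 (2.38 against 6.91). Prmt1 was at 110 ± 2.51 FPKM in KO and 276 ± 0.468 in WT at day 0. Of the 9 corepressors, 2 were higher and 3 lower at day 0, and 2 were higher and 6 lower at day 2, with a median log2 change of -0.19. The 1 corepressor past 2-fold was Hr (hairless), at 2.78 ± 0.378 FPKM in KO and 0.419 ± 0.0456 in WT at day 2. Hr reached the minimum mean only through KO at day 2, so its higher KO level there goes with its being tested.

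Genes that make, carry or break down the ligands gave few tested members. Of 16 retinoid genes 6 were tested, with 3 higher and 1 lower in KO at day 0 and 4 higher and 2 lower at day 2 (medians 0.34 and 0.24). Aldh1a1, a retinoic acid synthesizing enzyme, was higher in KO at both days, at 2.96 against 0.246 FPKM and 3.96 against 0.470. Aldh1a1 is among the higher genes counted, but it reached the minimum mean only through the KO groups. Its higher KO level thus goes with its being tested. Rdh11 was lower in KO at day 0, at 11.3 against 31.3 FPKM. Dhrs3, which reduces retinal, was at 16.8 ± 1.29 FPKM in KO and 126 ± 3.05 in WT at day 2 (log2 change -2.84, adjusted p = 6.4e-11, limma). Of 8 thyroid hormone genes, the deiodinases and transporters among them, none had a mean of 1 FPKM. Cyp7b1, which hydroxylates oxysterols, was higher in KO at both days, at 3.90 against 0.794 FPKM and 2.53 against 0.273. It was 1 of 2 oxysterol genes tested of 6. Like Aldh1a1, Cyp7b1 reached the minimum mean only through the KO groups, so its higher KO level goes with its being tested. Of 12 steroid and vitamin D genes 5 were tested, with 3 higher and 2 lower at day 0 and 1 higher and 3 lower at day 2 (medians 0.29 and -0.77). Hsd11b1, which regenerates active glucocorticoid, was at 3.76 FPKM in KO and 0.432 in WT at day 0, and at 7.01 in KO and 59.7 in WT at day 2. Hsd17b12 was lower in KO at both days, at 52.7 against 183 FPKM and 60.2 against 345.

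Most of the tested target genes of the lipid and mitochondrial receptors were lower in the KO libraries at day 2. Of 14 PPAR targets tested, 9 were higher and 4 lower at day 0 (median log2 change 0.38), and 12 were lower and 2 not called at day 2 (median -1.20). Plin2, which coats lipid droplets, was at 234 ± 2.15 FPKM in KO and 803 ± 13.8 in WT at day 2 (log2 change -1.77, adjusted p = 1.4e-14, limma). Of 10 LXR targets 6 were tested, with 4 higher and 2 lower at day 0 (median 0.36). At day 2, 5 were lower and 1 was not called (median -1.16). Abcg1, under the minimum mean and so not tested, went the other way, at 2.57 FPKM in KO and 0.296 in WT at day 2. At day 0 Abcg1 was at 0.789 FPKM in KO and 0.0600 in WT. Abcg5, Abcg8 and Smpdl3a, also not tested, had at most 0.124 FPKM in any library. Abca1, the cholesterol exporter, was at 27.7 ± 0.668 FPKM in KO and 78.0 ± 3.22 in WT at day 2, and Lpcat3, a phospholipid remodelling enzyme, at 113 ± 5.30 and 353 ± 4.25. Lpcat3 was already lower in KO at day 0, at 49.1 ± 0.875 against 124 ± 0.111 FPKM. Of 8 ERR targets tested, 3 were higher and 5 lower at day 0 (median -0.11), and 1 was higher and 7 lower at day 2 (median -1.40). Idh3a, a subunit of isocitrate dehydrogenase, was at 45.3 ± 1.32 FPKM in KO and 482 ± 1.92 in WT at day 2 (-3.38, adjusted p = 5.1e-15). At day 0 Idh3a was at 19.8 FPKM in KO and 38.3 in WT. Pdk4 and Acadm stand on both the PPAR and the ERR list. Over all genes the median was -0.06 at day 0 and 0.00 at day 2. The adipocyte markers moved with these lists, with 6 of 6 tested lower in KO at day 2 and 6 not called at day 0, and their part was not tested. Adipoq and Retn reached the minimum mean only through WT at day 2, at 47.1 and 102 FPKM against 0.472 and 1.32 in KO. Their lower KO level at day 2 thus goes with their being tested.

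Targets of the hormone receptors were mixed. Of 4 RAR targets tested, 2 were higher and 1 lower in KO at day 0, and 2 were higher and 2 lower at day 2 (medians 0.26 and -1.29). Without KO day 2 replicate 3, the day 2 count was 2 called in place of 4. Tgm2, the tissue transglutaminase, was at 21.6 ± 0.698 FPKM in WT at day 2 and at 0.00979 ± 0.0170 in KO (log2 change -4.48, adjusted p = 1.8e-12, limma). It was also lower in KO at day 0, at 0.193 against 2.56 FPKM. Of 5 thyroid receptor targets tested, 1 was higher and 1 lower at day 0, and 1 was higher and 4 lower at day 2 (medians 0.10 and -0.61). Thrsp, a lipogenic gene, was at 0.228 ± 0.0104 FPKM in KO and 8.26 ± 0.0281 in WT at day 2 (-2.91, adjusted p = 3.4e-12). All 3 tested estrogen receptor targets (Igf1, Ctsd and Cxcl12) were higher in KO at both days, with medians of 1.004 and 1.52. Igf1, the growth factor, was at 61.1 ± 1.26 FPKM in KO and 9.87 ± 0.172 in WT at day 0, and at 39.9 ± 1.92 and 2.75 ± 0.216 at day 2. Esr1 and Esr2 had 23 and 30 reads in all libraries. Of the VDR targets, Spp1 (osteopontin) was the 1 tested of 6, at 209 ± 2.49 FPKM in KO and 524 ± 11.3 in WT at day 0 (-1.32, adjusted p = 6.6e-10), and it did not pass at day 2 (0.01). Of 6 corticoid targets, 3 were higher and 2 lower at day 0, and 2 were higher and 3 lower at day 2 (medians 0.09 and -0.31). At day 0 Fkbp5 was at 6.77 FPKM in KO and 36.0 in WT, and Sgk1 at 45.1 and 108. Tsc22d3 (GILZ), a glucocorticoid-induced leucine zipper gene, was at 637 ± 14.3 FPKM in KO and 114 ± 1.97 in WT at day 2 (2.47, adjusted p = 5.9e-15). Zbtb16, a zinc finger repressor gene, was at 0.791 ± 0.117 FPKM in KO and 13.3 ± 0.552 in WT at day 2 (-2.995, adjusted p = 2.6e-12). Tgm2, Thrsp and Zbtb16 reached the minimum mean only through WT at day 2, so a lower KO level there goes with their being tested.

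**Figure D5:**
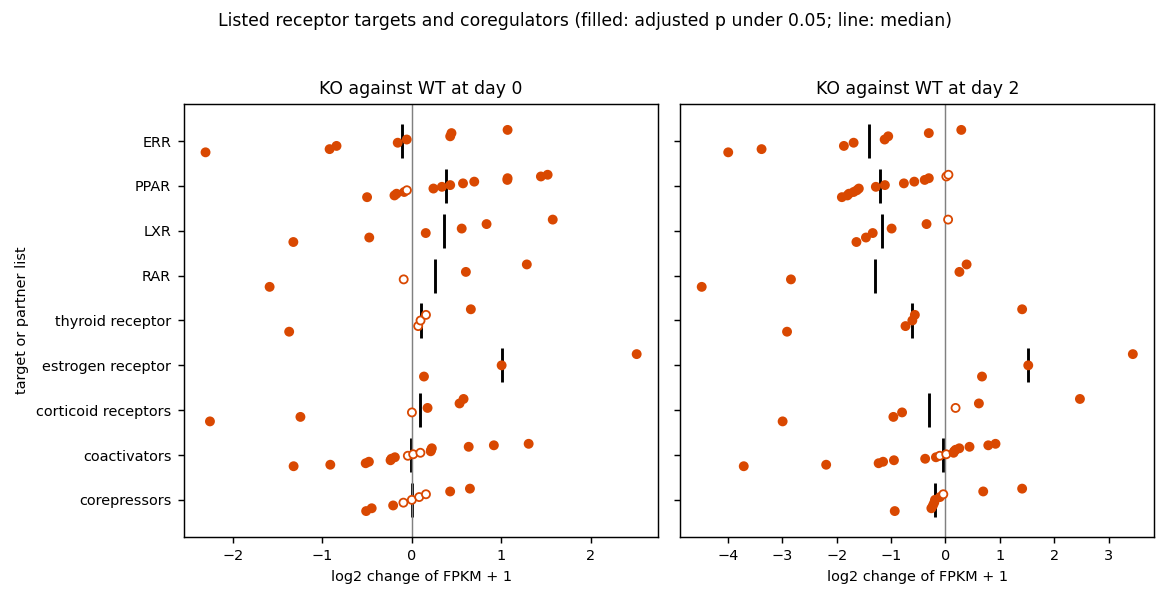
Log2 change of FPKM + 1 in the libraries labelled KO against WT at day 0 (left) and day 2 (right) for each tested target or coregulator gene. Filled points have an adjusted p under 0.05 and the vertical line is the median of the tested genes of a list. At day 2 the medians of the ERR, PPAR and LXR lists lie at -1.40, -1.20 and -1.16, and those of the coactivators and corepressors at -0.05 and -0.19.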

How the data were processed

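RNA-seq of 12 libraries was analysed, 3 in each of 4 groups. The authors deposited a table of FPKM per gene. Per the submitters' processing notes, which list tools without roles, TopHat2 2.0.12, Bowtie2 2.2.3 and HTSeq 0.6.1 were used, with the mm10 build; no annotation or strand setting is stated there. FPKM values were whole multiples of the value of 1 read in each library for all 30916 genes above 0 (tolerance 0.001 reads), which gave library totals of 18073766 to 23116584 reads and the gene lengths used. Members were matched by symbol, and coordinates come from RefSeq on GRCm38.p6.

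Genes averaging 1 FPKM or more (12961) were fitted as log2(FPKM + 1) with limma 3.58.1 in R 4.3.3 (4 group means, variance trend, 2-sided, Benjamini-Hochberg adjustment within each of 5 comparisons, threshold 0.05), and tested on simulated data. Members that passed and differed at least 2-fold in 1 or more of the 4 comparisons of 2 groups (10 of 17) are described with all libraries, the other 7 by ranges. Genes named from a list were drawn from at most 3 per day past the threshold and 2-fold, by smallest adjusted p. Not all of those are named. Members and lists were chosen with earlier results of these data known. No batch was given in the labels. Alternatives changed the pseudocount, filter, scaling, fit and libraries, and included voom on the recovered reads. Libraries of a group differed by 1.38 to 2.09 times counting noise (median over genes), so no library was a copy of another.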

Additional observations from a re-analysis of the deposited data

Results flagged for a closer look

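The changes from day 0 to day 2 differed between the genotypes for 13 of the 17 tested receptors by the interaction term (limma, adjusted p under 0.05). Of the 13, 5 were higher and 8 lower in KO than in WT. Over all genes 40.8% were called higher and 33.0% lower, so such a call was common and not particular to the receptors. On the log2 scale, KO minus WT, the difference was 5.72 for Vdr, 2.87 for Nr2f2, 1.94 for Rarg, 1.06 for Nr2f1 and 1.04 for Rara. It was -2.79 for Rora, -2.65 for Nr1h3, -1.06 for Esrra, -0.9998 for Nr3c2 and -0.76 for Rxrb. Smaller differences were -0.65 for Thra, -0.64 for Nr2c1 and -0.14 for Nr1h2. The adipocyte markers also differed in their response, with a median interaction of -5.80 over the 6 tested, and their part in the receptor differences was not tested. Of these 6, Adipoq and Retn reached the minimum mean only through WT at day 2.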

How the results depend on the processing

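The counts of members called were 14, 15, 13, 15 and 13 (KO against WT at day 0 and at day 2, the WT response, the KO response, and the interaction) and stayed within 1.5 times of these under every alternative fit. Asking for at least 2-fold left 5, 8, 6, 2 and 8. Leaving out 1 library gave 14 to 14, 15 to 16, 11 to 13, 14 to 15 and 13 to 14. The Zfp217 difference ranged from 3.53 to 4.41 FPKM at day 0 and from 7.14 to 7.99 at day 2. Of 1848 alternative values of the 85 member changes, 1798 kept direction and side of the threshold, 16 lost the call, 24 gained one and 10 changed sign. With quantile normalization the sign changed for Rarg at day 0 (0.030), Nr2c2 in the WT response (0.0036), Rara at day 0 (0.073) and Nr6a1 in the WT response (0.23), and with values rescaled to TPM for Rara at day 0 (0.062). With median-of-ratios scaling it changed for Nr6a1 in the WT response (0.045) and Nr2f6 in the KO response (0.035). Nr2f6 in the KO response also changed sign without KO day 0 replicate 2 (0.035) and without KO day 2 replicate 2 (0.024) or 3 (0.072), against -0.02 with all libraries and -0.16 without KO day 2 replicate 1. The cause of these changes was not tested. Quantile normalization moved the median of all genes in the WT response by 0.12 and the member split there from 8 higher and 5 lower to 11 and 4. Median-of-ratios scaling moved the KO response from 7 higher and 8 lower to 8 and 6. Libraries with the same replicate number did not deviate together (correlations -0.0545 to 0.0869, and 6 of 12 libraries correlated best with their own number). A fit with the replicate number as a block gave 14, 15, 13, 16 and 13 calls, adding Nr1h3 in the KO response (adjusted p = 0.034, limma). Recovered reads tested with voom gave 14, 16, 13, 15 and 13. The same alternatives were applied to 28 counts over the gene lists, a step chosen after seeing the data, and 11 of 614 values moved by over 1.5 times. With no minimum level, steroid and vitamin D genes called at day 0 went from 5 to 8, RAR targets from 3 to 5 and oxysterol genes from 1 to 2, and VDR targets at day 2 from 0 to 2. With a minimum of 5 FPKM, retinoid genes went from 4 to 2 at day 0 and from 6 to 3 at day 2, RAR targets at day 2 from 4 to 2 and thyroid receptor targets at day 2 from 5 to 3, since fewer genes were tested. With quantile normalization, RAR targets at day 2 went from 4 to 2 and oxysterol genes from 2 to 1. With no minimum level the counts were 17, 15, 13, 17 and 15. Counting error limits what can be said of the 14 members under 1 FPKM, which had at most 72 reads in all libraries.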
